A study of Mus musculus with 18 samples.

Results

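Messenger RNA of 9 transcription regulators of spermatocytes and spermatids was compared between mouse testes that carry a knock-in allele of Taf7l and wild-type testes. The 9 genes were Mybl1, Tcfl5, Rfx2, Rfx3, Sox30, Crem, Fhl5, Sox5 and Nr6a1, and each had 1 of the 22298 rows of the deposited mRNA table. They were chosen by name, as factors and cofactors of these cells, when earlier results of these data were known. The TAF7L protein stands in for TAF7 within TFIID, the complex that recruits RNA polymerase to promoters, in male germ cells. The knock-in group (TKI) and the wild-type group (TWT) each held 3 libraries of total RNA from whole adult testis of C57BL/6 mice, and per the series title the allele under study is a missense mutation. Labels also name 12 samples of isolated pachytene spermatocytes and round spermatids, which were not analysed here. Whether the libraries of a genotype came from different mice is not in the labels, and the p-values therefore reflect variation among libraries that may be technical in part.

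Male germ cells pass through meiosis as spermatocytes and are then remodelled, as haploid spermatids, into sperm. A relay of regulators drives this programme: A-MYB (Mybl1) and TCFL5 activate meiotic genes and piRNA precursors in pachytene spermatocytes, RFX2, RFX3 and SOX factors activate genes of the flagellum and of round spermatids, and CREM with its coactivator ACT (Fhl5) turns on genes of late sperm formation. GCNF (Nr6a1) is an orphan nuclear receptor that acts mainly as a repressor and is expressed in the testis mostly after meiosis.

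Sox5, which encodes an HMG-box factor with a short form made in spermatids, was the 1 regulator whose mRNA was called. Its fitted level was 1.40-fold higher in knock-in testes. Of all 15787 genes tested, 0.982% were called at an adjusted p under 0.05 (edgeR). The Sox5 call was kept in 3 of the 6 fits that left out 1 library. The other 8 mRNAs lay within 0.10 log2 units of no change. A noncoding transcript that carries the symbol Nr6a1 was counted 220 times over the knock-in libraries and 3 times over the wild-type libraries. It was called, as 0.0968% of all noncoding transcripts tested were, but the call was lost in each fit that left out 1 library. The Nr6a1 mRNA count differed by less than the spread between libraries. Of circular RNAs made from these genes, those of Rfx3 were the most counted, and 0 of the 19 tested circles passed the test, against 0.0% of all circles tested (edgeR).

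Sequence before the annotated start of 4 regulators is shown here, because it holds letters of the kind that proteins of this group are known to bind. RefSeq (GRCm38.p6) gave 9 promoter windows for 7 of the members (none for Mybl1 or Crem), each running from 250 bases before to 50 bases after a start. Each window was searched on both strands for TGACG, the core of the cAMP response element bound by CREM, for GTTGCC, an arm of the X-box bound by RFX factors, for CAGTTG, a MYB site, for ACAATG, a SOX site, for CACGTG, an E-box of the kind bound by basic helix-loop-helix factors, and for AGGTCA, an arm of the nuclear receptor element bound by GCNF. No match to a motif overlapped a match to a different motif. Matches to TGACG on opposite strands, at bases 36 and 39 counted from the outer start of Nr6a1, overlapped each other. The letters there thus read the same on both strands. How many of all windows held such a pair was not counted. Sequences are written 5′ to 3′ on the minus strand, where all 4 genes lie, and capitals mark the matches on either strand.

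Sox5 before its start (chr6:143947107-143947356), with ACAATG and, read on the other strand, GTTGCC:
Sox5: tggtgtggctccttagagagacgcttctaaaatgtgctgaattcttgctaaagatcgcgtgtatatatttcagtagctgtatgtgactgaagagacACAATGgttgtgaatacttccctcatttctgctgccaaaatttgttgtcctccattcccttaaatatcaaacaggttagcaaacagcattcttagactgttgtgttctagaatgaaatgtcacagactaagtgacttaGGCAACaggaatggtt
Nr6a1 before its inner start (chr2:38784516-38784635), with AGGTCA read on the other strand at 2 places and TGACG:
Nr6a1: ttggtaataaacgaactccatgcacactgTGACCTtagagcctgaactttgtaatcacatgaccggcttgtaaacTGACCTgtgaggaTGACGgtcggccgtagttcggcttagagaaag
Tcfl5 between 160 and 101 bases before its start (chr2:180642792-180642851), with CAGTTG:
Tcfl5: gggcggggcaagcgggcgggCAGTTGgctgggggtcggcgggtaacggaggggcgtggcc
Rfx2 between 140 and 81 bases before its start (chr17:56831089-56831148), with GTTGCC:
Rfx2: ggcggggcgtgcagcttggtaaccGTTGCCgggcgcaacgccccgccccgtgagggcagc

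The start given for Sox5 lies 835 kb inside the outer edge of the gene, and in the stretch before it the SOX letters begin 154 bases and the RFX letters 16 bases before the start. The inner start of Nr6a1 lies 142 kb inside the gene. Such letters are common: over all 32851 promoter windows of this length, 20.8% held TGACG, 16.3% AGGTCA, 13.7% CAGTTG, 12.6% ACAATG, 12.5% GTTGCC and 7.15% CACGTG. Among the 9 windows, 3 held TGACG (both of Nr6a1 and that of Rfx2), 3 held GTTGCC (Sox5, Rfx2 and Rfx3), 2 held AGGTCA (the inner start of Nr6a1 and a start of Fhl5), 1 held CAGTTG, 1 held ACAATG and 0 held CACGTG. A match describes the letters of the window and says nothing of binding in these testes.

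The libraries held between 17431309 and 21446420 counts of mRNA genes, and the 15787 genes with enough counts, all 9 regulators among them, were tested with edgeR's quasi-likelihood test. CPM below is a gene's count after TMM scaling, per the total of its library. Taf7l itself had 25.97, 27.2 and 27.3 CPM in TKI libraries and 27.7, 29.1 and 30.2 CPM in TWT libraries (log2 fold change -0.11 ± 0.08 SE, edgeR adjusted p = 0.632). A knock-in need not alter the level of its own transcript, and the genotype labels could not be checked by it. The tissue label was checked on markers: all 7 spermatogonial, 7 spermatocyte, 7 round spermatid and 7 elongating spermatid markers were tested, whereas 1 of 5 epididymis markers was, and Lcn5 and Lcn8 of that list were at 0. Crisp1 of the same list, named after its values were seen, stood at 9.52 CPM in TKI library 1 and 11.9 CPM in TWT library 2, against 0.0517 and 0.0471 CPM in the other TKI libraries and 0.164 and 0.171 CPM in the other TWT libraries. Those libraries thus stood apart in this marker, and Sox5 had a log2 fold change of 0.49 without TKI library 1 (edgeR adjusted p = 0.0313) and of 0.43 without TWT library 2 (edgeR adjusted p = 0.0661). In bulk testis, fewer cells of a type and less RNA per cell cannot be told apart.

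**Figure D1:**
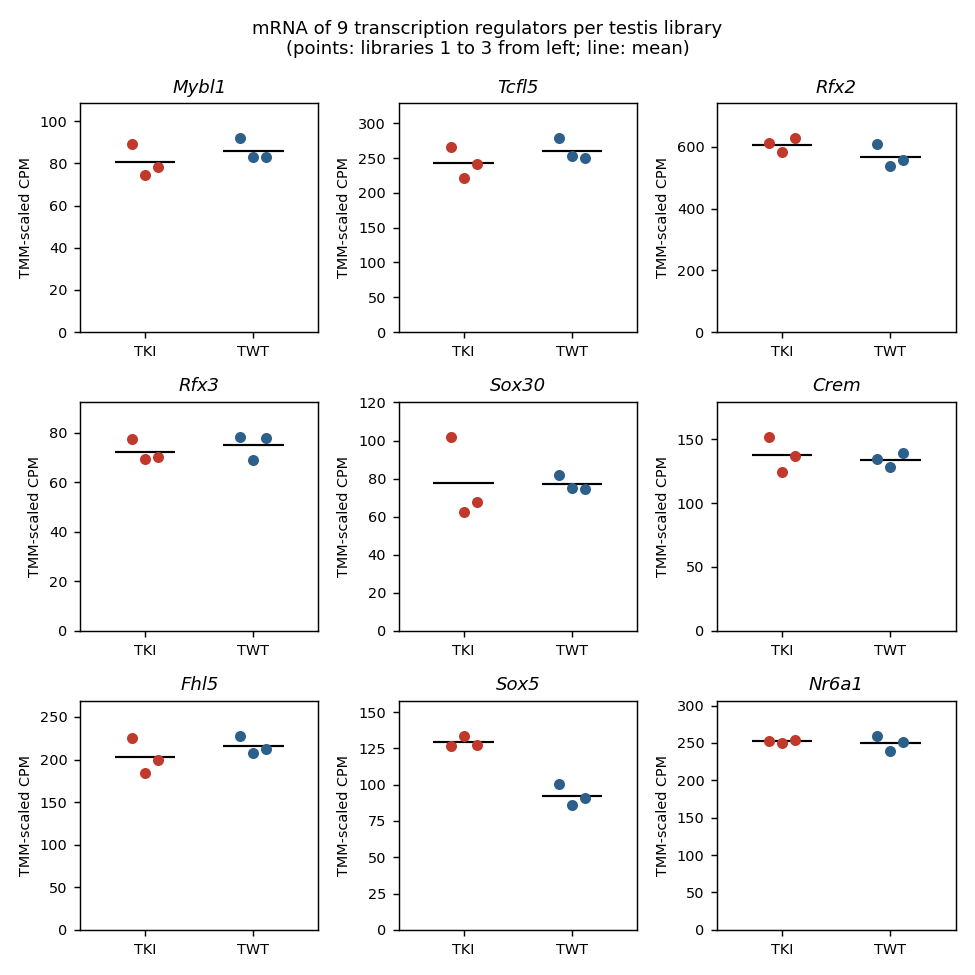
TMM-scaled CPM of each regulator mRNA (vertical axis from 0) in the 3 knock-in (TKI, red, left) and 3 wild-type (TWT, blue, right) libraries; points are libraries 1 to 3 from left and lines are means. The Sox5 points lie between 126 and 133 CPM in TKI and between 86.3 and 100.2 CPM in TWT, and the points of the other 8 genes overlap between genotypes.

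Sox5 (ENSMUSG00000041540, GRCm38.p6 chr6:143828425-144782287) had 126, 133 and 128 CPM in TKI libraries and 100.2, 86.3 and 91.0 CPM in TWT libraries. Each knock-in library was above each wild-type library. The mean was 129 ± 3.79 CPM in TKI and 92.5 ± 7.10 CPM in TWT (SD, n = 3 each). On the log2 scale the change was 0.48 ± 0.07 (SE), a rise of 39.7%, with a 95% interval of the log2 value from 0.33 to 0.63 (edgeR, adjusted p = 0.0143). Its FPKM was 68.0, 79.5 and 72.2 in TKI libraries and 52.6, 47.8 and 50.5 in TWT libraries, again without overlap. Of all tested genes, 10.1% likewise had every TKI library above every TWT library, and 0.88% were called higher. The authors' deposited table also lists Sox5 below 0.05, with an adjusted p of 8.38e-07, where it lists 2.25% of the genes above 0.

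The fold change of Sox5 kept its direction and its call in each of the 9 other settings tried, with log2 values from 0.46 to 0.54. Among the fits that left out 1 library, 3 of 6 kept the call: the adjusted p by edgeR was 0.0921 without TKI library 3, 0.0661 without TWT library 2 and 0.0793 without TWT library 3. Markers of Leydig and peritubular myoid cells did not overlap between the genotypes in their sum. Of all single genes tested, 18.5% likewise did not overlap in CPM, in either direction. Summed CPM of the 6 Leydig markers ran from 1239 to 1255 in TKI and from 1054 to 1213 in TWT, and that of the 5 peritubular myoid markers from 218 to 250 in TKI and from 182 to 210 in TWT; 0 markers of either list were called by edgeR, 4 of the Leydig and 5 of the myoid markers lay above a log2 fold change of 0, and each marker was detected. The sums of spermatogonial, spermatocyte, round spermatid, elongating spermatid, Sertoli, macrophage, endothelial, epididymis and erythrocyte markers overlapped between genotypes, those of the 7 round spermatid markers running from 1283 to 1353 CPM in TKI and from 1186 to 1331 CPM in TWT. Within the elongating spermatid list 2 of 7 markers were called higher, beside 0.88% of all genes tested. In this list 5 markers lay above 0 and the median log2 fold change was 0.39. The share of all tested genes above 0 is not given here. The called markers were Prm2 and Smcp. Both calls were lost with the length correction (edgeR adjusted p = 0.0934 and 0.0873). Prm2 was called in 2 and Smcp in 1 of the 6 fits without 1 library. The highest members of the list were Tnp1 (0.53), Prm2 (0.53), Smcp (0.40) and Tnp2 (0.39), and its most counted, Prm1, was at -0.31. The part of these cell types in the Sox5 value was not tested.

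**Figure D2:**
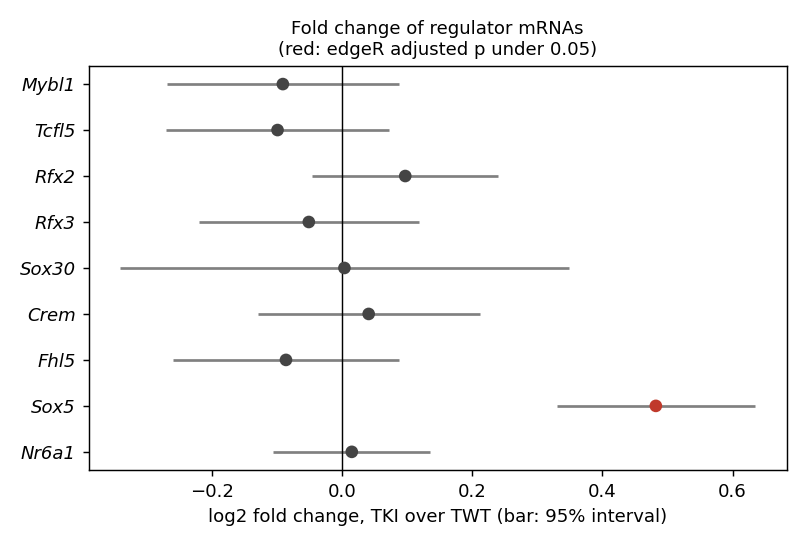
Log2 fold change, TKI over TWT, of each regulator mRNA (horizontal axis) with its 95% interval; red marks an edgeR adjusted p under 0.05. The interval of Sox5 runs from 0.33 to 0.63 and lies wholly above 0, and each of the other 8 intervals includes 0.

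The 8 regulators that were not called split evenly, 4 above and 4 below 0, with log2 fold changes from -0.10 to 0.10 and adjusted p from 0.590 to 0.995 by edgeR. Over the 9 members the median log2 fold change was 0.00, as it was over all tested genes. The widest of their 95% intervals, that of Sox30, ran from -0.34 to 0.35, so a difference as large as that of Sox5 lies outside the interval of each of the 8.

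Of the pachytene regulators, Mybl1 (ENSMUSG00000025912, chr1:9667407-9700439), which encodes A-MYB, had 89.0, 74.7 and 78.5 CPM in TKI libraries and 91.9, 83.1 and 82.9 CPM in TWT libraries (log2 fold change -0.09 ± 0.08 SE). Tcfl5 (ENSMUSG00000038932, chr2:180621956-180642691), a basic helix-loop-helix factor that works with A-MYB, had 267, 221 and 242 CPM in TKI libraries and 279, 252 and 251 CPM in TWT libraries (log2 fold change -0.10 ± 0.08 SE). For both genes the first library was the highest of its genotype and the groups overlapped.

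Of the RFX factors, Rfx2 (ENSMUSG00000024206, chr17:56775897-56831008), needed for spermatid flagella, was the most counted of the 9 regulators, with 611, 582 and 628 CPM in TKI libraries and 609.7, 537 and 556 CPM in TWT libraries (log2 fold change 0.10 ± 0.06 SE). Its relative Rfx3 (ENSMUSG00000040929, chr19:27761721-28014669), an activator of genes of motile cilia, had 77.6, 69.4 and 70.0 CPM in TKI libraries and 78.2, 68.9 and 77.7 CPM in TWT libraries (log2 fold change -0.05 ± 0.08 SE). The groups overlapped for both. By FPKM, which is per length, the Rfx2 values of 139.6, 142 and 146 in TKI all lay above those of 139, 129 and 132 in TWT, the closest pair being 139.64 in TKI and 138.62 in TWT. Of all tested genes, 19.3% did not overlap in FPKM, in either direction.

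Of the regulators that act on spermatid genes together, Crem (ENSMUSG00000063889, chr18:3266354-3337773) had 151, 124 and 137 CPM in TKI libraries and 134, 128 and 139 CPM in TWT libraries (log2 fold change 0.04 ± 0.08 SE). The TKI libraries of Crem enclosed all TWT libraries in their range. Fhl5 (ENSMUSG00000028259, chr4:25199907-25242852), the LIM-only coactivator of CREM, had 226, 184 and 199.8 CPM in TKI libraries and 228, 207 and 213 CPM in TWT libraries (log2 fold change -0.09 ± 0.08 SE). The highest library was the first of each genotype, and the groups overlapped.

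Sox30 (ENSMUSG00000040489, chr11:45979069-46017992), an HMG-box factor needed for spermatids to develop, was the most uneven of the 9. It had 102, 62.7 and 67.9 CPM in TKI libraries and 82.0, 74.9 and 74.7 CPM in TWT libraries. The first knock-in library was above all wild-type libraries and the other two were below all of them, so the means were nearly equal, 77.5 ± 21.2 CPM in TKI and 77.2 ± 4.18 CPM in TWT (SD, n = 3 each). The coefficient of variation was 27.4% in TKI and 5.42% in TWT, and the next highest in TKI was 10.2%. Its log2 fold change was 0.00 ± 0.15 (SE), and its sign changed with the setting.

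Nr6a1 (ENSMUSG00000063972, chr2:38723369-38926461) had 253, 250.2 and 254 CPM in TKI libraries and 259, 239 and 251 CPM in TWT libraries. The TKI values lay inside the range of the TWT values (log2 fold change 0.01 ± 0.05 SE). TKI library 2 was the lowest of its genotype for 8 of the 9 members. Library 1 was the highest for 6 members in TKI and 8 in TWT, and for 5 members it was the highest in both. The same counts over all tested genes are not given here, so they are not read as a trait of the libraries.

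Between genes, levels are compared by the deposited FPKM. In TKI the order was Rfx2 with a mean of 143 FPKM, Fhl5 with 139, Crem with 116, Tcfl5 with 84.2, Sox5 with 73.2, Nr6a1 with 69.4, Rfx3 with 19.96, Sox30 with 19.9 and Mybl1 with 18.2. In TWT it was Fhl5 with a mean of 149 FPKM, Rfx2 with 133, Crem with 110.4, Tcfl5 with 90.8, Nr6a1 with 62.0, Sox5 with 50.3, Rfx3 with 20.4, Sox30 with 19.97 and Mybl1 with 18.4. Rfx2 and Fhl5 overlapped in TKI, and in TWT all Fhl5 values were above those of Rfx2. Crem was above Tcfl5, and every member down to Nr6a1 and Sox5 above Rfx3, without overlap in both genotypes. Rfx3, Sox30 and Mybl1 overlapped as neighbours in both. Sox5 overlapped with Tcfl5 and with Nr6a1 in TKI, whereas in TWT it was below both without overlap.

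**Figure D3:**
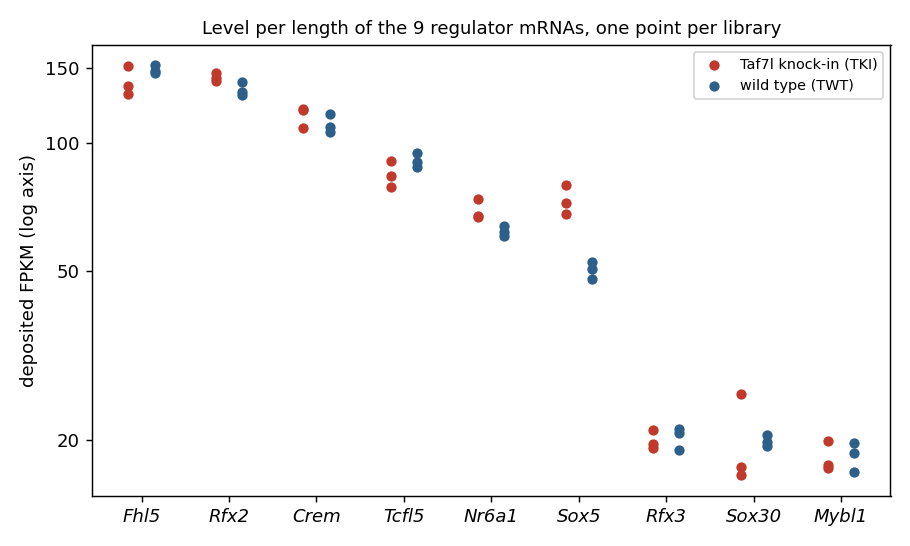
Deposited FPKM (log axis) of the 9 regulators, ordered by their mean in TWT, with a point for each TKI (red, left) and TWT (blue, right) library. Sox5 ranges from 68.0 to 79.5 FPKM in TKI and from 47.8 to 52.6 in TWT, and Rfx3, Sox30 and Mybl1 lie together between 16.6 and 25.7 FPKM.

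The libraries of Nr6a1 did not overlap between genotypes in FPKM, while its CPM did. Its FPKM was 66.9, 73.9 and 67.4 in TKI libraries and 61.7, 63.9 and 60.4 in TWT libraries, with every TKI value above every TWT value (limma on log2(FPKM + 1), log2 fold change 0.16, adjusted p = 0.239). Dividing a gene's deposited count by its deposited FPKM and by the library's total count gives the length in bases that the authors' FPKM implies for that library. For Nr6a1 this length was 3691, 3464 and 3730 bases in TKI libraries and 4094, 3818 and 4201 bases in TWT libraries. It was shorter in TKI, with a change of -10.1%, with no overlap of the groups (p = 0.1 by a two-sided exact permutation test, which cannot go lower with 3 libraries against 3). Among the 7524 genes with at least 5 FPKM in each library, 14.8% had implied lengths that did not overlap, 6.31% were shorter in TKI without overlap, and 1.44% were shorter by at least as much as Nr6a1.

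Sox5 was the other member whose implied lengths did not overlap, with 1815, 1717 and 1753 bases in TKI libraries and 1859, 1842 and 1817 bases in TWT libraries. The length was shorter in TKI, with a change of -4.21% (p = 0.1 by the same exact permutation test). For Tcfl5, Sox30 and Fhl5 the implied length was nearly constant, at 2876 ± 1.79 bases in TKI and 2873 ± 7.37 bases in TWT for Tcfl5 (SD, n = 3 each). Mybl1 varied more among wild-type libraries than between the genotype means, with 4355, 4449 and 4442 bases in TKI and 4792, 4292 and 4976 bases in TWT. How the authors' FPKM took a gene's length, and whether transcripts were weighted in it, is not given in the sources used here, so these lengths describe the deposited values and do not measure transcripts.

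**Figure D4:**
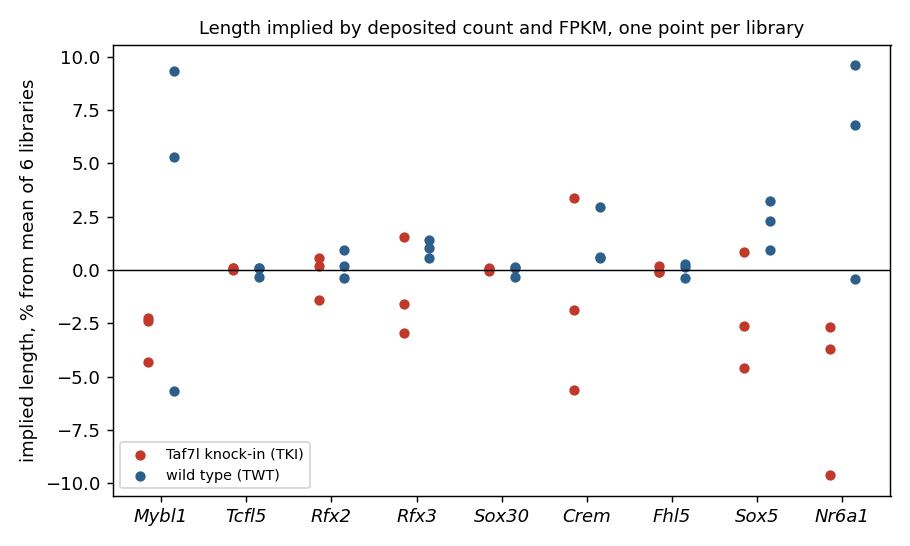
Length implied by the deposited count and FPKM, as percent from the mean of the 6 libraries (vertical axis), with a point for each TKI (red, left) and TWT (blue, right) library. The groups do not overlap for Nr6a1, with a change of -10.1% in TKI, and for Sox5, with -4.21%.

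The noncoding table held 13 transcripts with a member's symbol, 5 of Nr6a1, 4 of Crem, 3 of Sox5 and 1 of Rfx3. Of these 6 were tested, 4 were above 0 but too low to test and 3 were at 0 in all libraries. The transcript ENSMUST00000132636 of Nr6a1 had 47, 106 and 67 counts in TKI libraries and 0, 3 and 0 counts in TWT libraries. It was thus counted in all knock-in libraries and in a single wild-type library. Scaled by depth, the ratio of the summed counts was 69.0, with a 95% counting interval from 23.3 to 337, and the fitted log2 fold change was 5.96 ± 0.76 (SE; edgeR, adjusted p = 0.0494). Of 9301 noncoding transcripts tested, 0.0968% were called and 0.0538% were called higher. The authors' deposited table lists the transcript with an adjusted p of 1.01e-06, and 0.499% of its noncoding transcripts above 0 have an adjusted p under 0.05.

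The call of ENSMUST00000132636 was lost in each of the 6 fits that left out 1 library, with adjusted p from 0.0707 to 0.180 by edgeR, and its fitted value ran from 5.41 to 9.17 in them. Its counts came to between 1.02% and 2.19% of the Nr6a1 mRNA count in TKI libraries and to at most 0.0663% in TWT libraries. Another noncoding transcript of Nr6a1, ENSMUST00000128688, was the most counted of all, with 421, 453 and 475 counts in TKI libraries and 399, 449 and 362 counts in TWT libraries (log2 fold change 0.07 ± 0.10 SE). ENSMUST00000123342 and ENSMUST00000156301 of Nr6a1 held 50 and 41 counts in TKI and 61 and 47 counts in TWT over the libraries of each genotype. Transcripts of Nr6a1 and its mRNA can share sequence, and the treatment of shared reads is not given in the sources used here, so the value of a single transcript is uncertain.

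Of the Crem transcripts, ENSMUST00000149266 had 147, 111 and 227 counts in TKI libraries and 80, 139 and 108 counts in TWT libraries (log2 fold change 0.46 ± 0.27 SE, edgeR adjusted p = 0.688). ENSMUST00000156929 had 28, 39 and 58 counts in TKI libraries and 36, 30 and 28 counts in TWT libraries (log2 fold change 0.31 ± 0.28 SE, edgeR adjusted p = 0.805). Both overlapped between genotypes. The transcripts above 0 that were too low to test were ENSMUST00000149451 of Sox5 with 22 counts in TKI and 24 in TWT, ENSMUST00000111746 of Sox5 with 7 counts in TKI and 21 in TWT, ENSMUST00000139478 of Sox5 with 9 counts in TKI and 3 in TWT, and ENSMUST00000132334 of Crem with 7 counts in TKI and 8 in TWT.

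**Figure D5:**
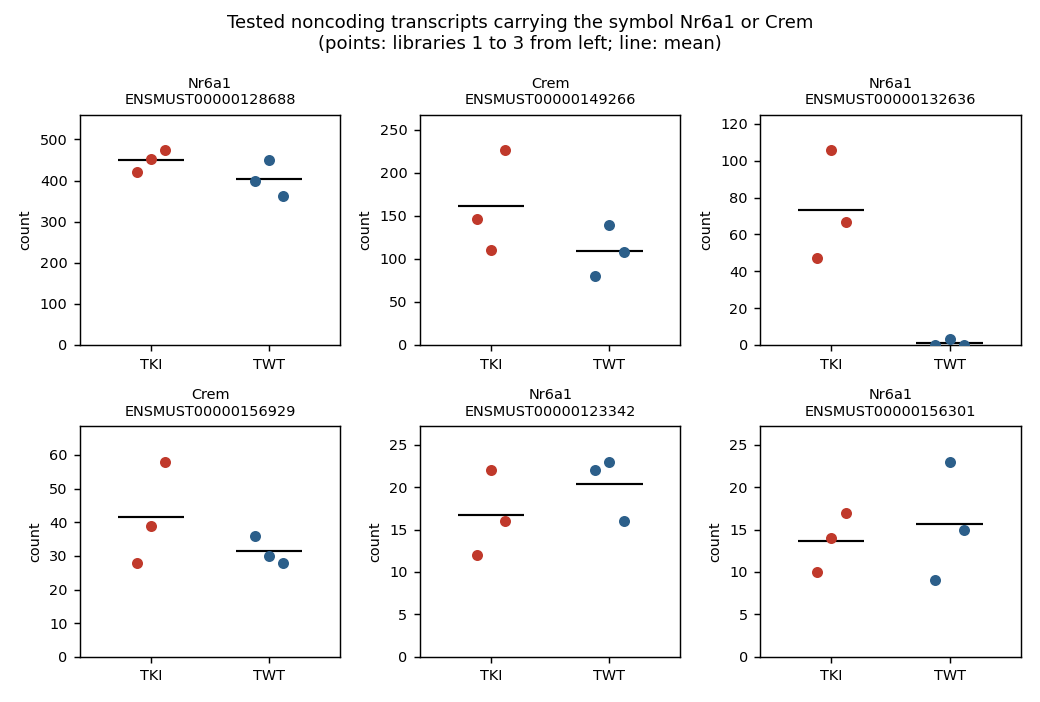
Deposited counts (vertical axes from 0) of the 6 tested noncoding transcripts with the symbol Nr6a1 or Crem, in the 3 TKI (red, left) and 3 TWT (blue, right) libraries; lines are means. ENSMUST00000132636 lies between 47 and 106 counts in TKI and between 0 and 3 in TWT, and the other 5 overlap.

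Circular RNAs form when a splice donor joins an upstream acceptor. The table listed 34 circles from 6 of the 9 genes, 16 of Rfx3, 12 of Crem, 3 of Tcfl5 and 1 each of Mybl1, Sox30 and Nr6a1, and it listed none of Rfx2, Fhl5 or Sox5. Every listed circle had at least 2 counts over the libraries. Of the 19 tested, 0 were called by edgeR and 0 by DESeq2, with a lowest adjusted p of 0.979 by edgeR. The fitted change was positive for 15 and negative for 4. Of these 19 circles 11 were of Rfx3, and the share of positive changes over all circles is not given here, so the split is not read as a rise. Of all 3887 circles tested, 0.0% were called by edgeR and 191 had an unadjusted p under 0.05. The circles of these genes held 0.871% ± 0.116 of all circle counts in TKI and 0.762% ± 0.0535 in TWT (SD, n = 3 each), and the groups overlapped (two-sided exact permutation test, p = 0.3).

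Rfx3 ranked 12 among 3075 host genes by number of circles and 13 by circle counts. Its leading circle (chr19:27849711-27900903, as the authors' table gives it, 482 bases when spliced) had 94, 71 and 106 counts in TKI libraries and 75, 57 and 85 counts in TWT libraries. The groups overlapped (log2 fold change 0.14 ± 0.19 SE). This circle held 75.5% of the Rfx3 circle counts and ranked 14 of 7391 circles. Per 1000 Rfx3 mRNA counts there were 83.5 ± 13.9 circle counts in TKI and 70.4 ± 7.96 in TWT (SD, n = 3 each), whereas Rfx2, the most counted mRNA of the 9, had no listed circle. Further Rfx3 circles were far less counted. That of 947 spliced bases held 16 counts in TKI and 12 in TWT, that of 815 bases 13 in TKI and 7 in TWT, that of 541 bases 11 in TKI and 8 in TWT, that of 935 bases 10 in TKI and 7 in TWT, and that of 712 bases 4 in TKI and 11 in TWT.

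Crem circles held 31, 21 and 29 counts in TKI libraries and 20, 17 and 8 counts in TWT libraries. As a share of all circle counts that was 0.192%, 0.128% and 0.144% in TKI and 0.116%, 0.118% and 0.0555% in TWT, every TKI value being above every TWT value. This share was singled out after its values were seen (p = 0.1 by a two-sided exact permutation test, its lowest possible value here), and 15.8% of the 184 host genes with at least 100 circle counts did not overlap either. The most counted Crem circles were that of 216 spliced bases with 18 counts in TKI and 8 in TWT and that of 1283 spliced bases with 13 counts in TKI and 10 in TWT. The others among the most counted were those of 2388 spliced bases with 11 counts in TKI and 8 in TWT and, level with the last Rfx3 circle named above, of 1430 spliced bases with 11 counts in TKI and 4 in TWT. The 1 Mybl1 circle, of 1078 spliced bases, held 13 counts in TKI and 7 in TWT, and the 3 Tcfl5 circles together held 7 counts in TKI and 5 in TWT.

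Genes linked to these regulators were counted in lists. The lists were chosen with earlier results of these data known and share genes, so their counts are descriptive and no independent comparison with all genes. Of 11 genes linked to CREM, 2 were called higher, 0 were called lower and 9 were not called. Of the 11, 7 lay above and 4 below 0, with a median log2 fold change of 0.08. Of all genes tested, 0.88% were called higher. Prm2, a protamine that packs sperm DNA, averaged 2243 ± 216 CPM in TKI and 1556 ± 149 CPM in TWT (SD, n = 3 each; log2 fold change 0.53 ± 0.09 SE, edgeR adjusted p = 0.0289). Smcp, of the sperm mitochondrial capsule, averaged 866 ± 57.0 CPM in TKI and 655 ± 40.6 CPM in TWT (SD, n = 3 each; log2 fold change 0.40 ± 0.07 SE, edgeR adjusted p = 0.0307). At the low end, named after their values were seen, were the other protamine gene Prm1, with 3113 ± 479 CPM in TKI and 3849.8 ± 427 CPM in TWT (SD, n = 3 each; log2 fold change -0.31 ± 0.12 SE, edgeR adjusted p = 0.303), the sperm lactate dehydrogenase gene Ldhc (-0.14) and Capza3 (-0.13). Both calls were lost once a trend with gene length was removed, at log2 0.38 for Prm2 (edgeR adjusted p = 0.0934) and 0.31 for Smcp (0.0873). Prm2 was called in 2 and Smcp in 1 of the 6 fits without 1 library. Both are also among the 7 elongating spermatid markers, of which 5 lay above 0 with a median log2 fold change of 0.39, among them Tnp1 (0.53) and Tnp2 (0.39). The summed level of these markers, of which Prm1 was the most counted, overlapped between genotypes, from 10245 to 12307 CPM in TKI and from 9969.5 to 11909.6 CPM in TWT.

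Of 10 RFX-linked genes 0 were called, with a median log2 fold change of 0.01. The highest were H1f6, a testis linker histone (0.18), and Dync2li1 of the ciliary dynein (0.15), and the lowest Spag6l of the flagellar central pair (-0.09) and Gtf2a1l, a germ cell TFIIA subunit (-0.04). Of 12 genes linked to A-MYB 0 were called, with a median of -0.04. They ran from Tdrd6, a germ granule protein (-0.10), and Tcfl5 itself (-0.10) to Tdrd3 (0.10) and the piRNA-binding Piwil1 (0.13). Of 7 SOX-linked genes 0 were called, with a median of 0.09. Tnp1, a transition protein, was the highest (0.53 ± 0.12 SE, edgeR adjusted p = 0.0859), followed by Ccdc54 (0.21), and Spag6l (-0.09) and Spag16 (-0.04) were the lowest. Of 3 NR6A1-linked genes 1 was called higher, again Prm2, with a list median of 0.11, beside 0.88% called higher among all genes tested. The others were Prm1 (-0.31) and Gpd2 (0.11).

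Relatives and partners of the regulators were not called either, where 0.982% of all genes tested were. Of 26 relatives 25 were tested and 0 called, with a median log2 fold change of 0.04. Fhl3 (0.74 ± 0.33 SE) and Creb5 (-0.62 ± 0.55 SE) were at the ends of the range, both at a low level, Fhl3 at 1.36 CPM in TKI and 0.816 in TWT and Creb5 at 0.611 CPM in TKI and 0.956 in TWT. The next were Rfxank, a subunit of the RFX5 complex (0.31), and Creb3, a membrane-bound CREB relative (-0.22). Of 7 cofactors 0 were called, with a median of 0.13. All 7 lay above 0, but the share of all tested genes above 0 is not given here, so this is not read as a rise. The highest was Crebbp, the acetyltransferase CBP, with 135 ± 7.22 CPM in TKI and 112 ± 2.80 CPM in TWT (SD, n = 3 each; log2 fold change 0.27 ± 0.06 SE, edgeR adjusted p = 0.0745), then Crtc2 (0.15), and the lowest were Crtc3 (0.01) and the acetyltransferase gene Ep300 (0.02). Of 19 other germ cell transcription regulators 0 were called, with a median of 0.01. Ctcfl (0.40) and Dmrt1 (0.18) were the highest, and Hsf2 (-0.42) and Stra8 (-0.29) the lowest.

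Across the 6 libraries, the genes whose log2 CPM profile lay closest to that of a regulator were found by the root-mean-square difference of profiles centred on their means. These profiles hold the difference between genotypes, so a near gene has a similar fold change by the way it was picked. Those nearest to Sox5 were Ift43, of the intraflagellar transport machinery, at 0.036 log2 units, and Prr27 at 0.043. Their log2 fold changes, 0.50 and 0.50, are thus no separate result. Nearest to Fhl5 were Rnf19a and Fhl4, a testis relative of Fhl5, both at 0.014. Nearest to Tcfl5 were Meak7 at 0.0098 and Actrt1, a testis actin relative, at 0.010. For Nr6a1 they were Txn2 at 0.0098 and the intraflagellar transport gene Ift88 at 0.012, for Rfx2 Rnf19b and Lrwd1 at 0.012, and for Rfx3 the germ cell helicase gene Ddx4 at 0.020 and Wdr19 at 0.022. For Crem they were Lrrc34 at 0.012 and Usp15 at 0.019, and for Mybl1 Bpifa3 and Crbn, both at 0.017. Sox30, the most uneven member, had the most distant neighbours, Sc5d at 0.046 and Suco at 0.056. These distances describe 6 libraries, and no test was made of them.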

How the data were processed

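Per the labels' protocols, libraries were made from total RNA of frozen testes with a stranded kit. The authors deposited whole-number counts per mRNA gene, noncoding transcript and circular RNA, with FPKM per library for the linear RNAs and RPM per library for the circles. Per the file headers, the authors' deposited tables also hold a mean per genotype (FPKM, or a signal for circles), the log2 ratio of both means, and the p-value of a test with its adjusted form. The submitters' processing notes name mm10 as the build; no aligner, counter, annotation, use of strand or test is given in the sources used here.

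Counts of TKI and TWT, 3 libraries each, were tested with edgeR 4.0.16 (quasi-likelihood, TMM, limma 3.58.1, R 4.3.3) on each whole table, two-sided with Benjamini-Hochberg adjustment, and called at an adjusted p under 0.05. Filtering was by filterByExpr for genes and noncoding transcripts (minimum count 10, minimum total 15), and circles were kept when above 0 in at least 3 libraries. The fits were run on simulated data with a common dispersion per table and changes larger than that of Sox5. Changes of the size of that of Sox5 were thus not covered by the simulation. Standard errors were derived from the F statistic. Depth ran from 17431309 to 21446420 counts per library for mRNA, from 1384224 to 1647421 for noncoding transcripts and from 14381 to 20127 for circles, and the common biological coefficient of variation was 11.1%, 26.4% and 43.4% in that order. Libraries of a genotype differed by a chi-square per degree of freedom of 4.93 to 9.32, so none copied the counts of another. These values cannot tell whether the libraries came from different mice. Counting intervals (95%) are exact and cover counting error only.

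Alternatives were other scalings, filters, DESeq2 1.42.0, limma on log2(FPKM + 1) and log2(FPKM + 0.1), a length trend, a replicate block and leaving out each library. The 9 members, the 8 gene lists and 11 marker lists were chosen with earlier results of these data known. All members were named. Of each list the called genes were named or, with 0 called, the highest and the lowest 2, and the nearest 2 genes of each member, passing over Gm and Rik symbols. The 10 most abundant noncoding transcripts and circles of the members were named, with ties. Gene positions and promoter sequences are from RefSeq (GRCm38.p6).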

Additional observations from a re-analysis of the deposited data

How the results depend on the processing

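Sox5 kept its direction and call in each of 9 other settings, and its fold change with a replicate block was 0.48. Of 155 genes called by edgeR, the count became 456 with the DESeq2 test, 248 with limma on log2(FPKM + 1), 84 with the length correction, 178 with the replicate block and 11 to 125 without 1 library. The count of regulators called was 0 to 1 without 1 library. Noncoding calls, 9 at first, became 129 without the filter, 110 with DESeq2, 2 with the replicate block and 6 to 15 without 1 library, and the Nr6a1 transcript ENSMUST00000132636 was not called with the block (log2 6.07, edgeR adjusted p = 0.114). Circle calls, 0 by edgeR, were 0 to 1 without 1 library. The numbers of the libraries were not treated as pairs in the main fit. In mRNA deviations from the genotype means, same-numbered libraries correlated at 0.137, 0.078 and 0.032. Differently numbered libraries correlated at -0.125 to 0.046. These values do not settle whether the numbers mark pairs, and with the replicate block Sox5 had an edgeR adjusted p of 0.0225.

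Values near 0 changed sign. Sox30, 0.00 at first, was -0.0021 with DESeq2 size factors, -0.013 with upper quartile scaling, -0.0011 with the DESeq2 test, -0.024 with the replicate block, -0.033 and -0.035 with limma on log2(FPKM + 1) and log2(FPKM + 0.1), -0.033 without the FPKM filter and -0.25 to 0.13 without 1 library. Crem was -0.037 with the length correction and -0.039 to 0.11 without 1 library. Nr6a1 was -0.0024 with upper quartile scaling and -0.016 to 0.038 without 1 library, and its transcript ENSMUST00000156301 was -0.58 to 0.083 without 1 library. The difference in circle share, 0.108 percentage points, was 0.0554 to 0.170 without 1 library. The causes were not tested. Circles rested on the fewest counts, 14381 to 20127 per library in all, which limits the differences that can be seen.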
